A study of Homo sapiens with 22 samples.

Results

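The 2 MEK inhibitors Trametinib and Cobimetinib were compared directly in xenografts of H2110, an established line of human lung adenocarcinoma. The comparison used 8 of the 22 tumours that were sequenced, 4 treated with Trametinib at 0.3 mg/kg and 4 treated with Cobimetinib at 3 mg/kg. A further 6 tumours, treated with Vehicle for the same 3 days, gave the level without drug. Tumours had reached about 300 mm³ before oral dosing for 3 days, and all of them carried the same line, with the genotype labelled WT. The other 8 tumours, 4 on RMC-7977 and 4 on RMC-4550, entered the fit to estimate the spread and are not described. All genes that passed a filter on low counts were tested, 17652 of the 58735 genes in the table with all 22 tumours and 17980 without Trametinib replicate 4. The doses of the 2 drugs differ, so every difference below holds at these doses. The labels number the replicates as separate samples but name no animals, so p-values reflect only the variation among these samples, part of which may be technical. The host species and the handling of host reads were not stated.

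MEK1 and MEK2 are the kinases that phosphorylate and activate ERK, and both drugs are allosteric inhibitors that bind beside the ATP site of MEK. Active ERK drives transcription of its own inhibitors, among them the DUSP phosphatases and the Sprouty proteins, together with immediate early genes and the ETS factors ETV4 and ETV5. Levels of these transcripts are therefore widely used as a readout of ERK signalling in lung adenocarcinoma. The study's title concerns RIT1, a RAS-related GTPase that signals towards this pathway.

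Libraries held 7761987 to 13133140 counts under Trametinib, 12655067 to 15428394 under Cobimetinib and 11160546 to 17265754 under Vehicle. Trametinib replicate 4 was the shallowest and stood apart. Ribosomal protein genes took 26.0% of its counts, against 3.08% to 9.87% in the other 21 libraries, and mitochondrially encoded genes took 1.94%, against 4.80% to 11.8%. Of its detected genes, 1.99% had only 1 or 2 counts, against 5.02% to 22.9% elsewhere, and its median correlation with the other libraries was 0.751, against 0.933 to 0.977. Libraries also differed in how their levels followed GC content. Across genes, the rank correlation of GC content with how far a library lay from the mean level was −0.48, −0.41, 0.05 and −0.10 in Trametinib replicates 1 to 4, and 0.39, 0.50, −0.23 and 0.45 in Cobimetinib replicates 1 to 4. This split runs largely along the drugs, so GC content and drug cannot be fully told apart, and several groups of genes below are also given with an offset that removes the GC trend of each library.

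With all 22 tumours, no gene passed an adjusted p of 0.05 in edgeR's quasi-likelihood test of Trametinib against Cobimetinib (0 of 17652 genes, 0%). An unadjusted p under 0.05 was reached by 2955 genes (16.7%), 1793 higher (10.2%) and 1162 lower (6.58%) under Trametinib, where uniform p-values would give 882.6. The smallest adjusted p was 0.152. DESeq2 called 168 genes (1.02%), 120 higher (0.727%) and 48 lower (0.291%). Dropping Trametinib replicate 4 also left 0 of 17980 genes called by edgeR's quasi-likelihood test, with a smallest adjusted p of 0.0773. The number at an unadjusted p under 0.05 was then 1648 (9.17%), 668 higher (3.72%) and 980 lower (5.45%), and DESeq2 called 52 genes (0.289%), 21 higher and 31 lower. The direction that held more genes therefore turned with that 1 tumour. The biological coefficient of variation was 0.368 with it and 0.287 without it. Leaving out Trametinib replicate 3 instead gave 313 calls (1.72%), 264 higher (1.45%) and 49 lower (0.269%). When 4 libraries that stood apart were all left out (Trametinib replicate 4, RMC-7977 replicate 3, Vehicle replicate 1 and RMC-4550 replicate 1, a choice made after seeing the data), edgeR's quasi-likelihood test called 537 of 17761 genes (3.02%), 448 lower (2.52%) and 89 higher (0.501%) under Trametinib. All Trametinib tumours lay above all Cobimetinib tumours in 452 genes (2.56%) and below in 786 (4.45%), and in 1176 (6.54%) and 1289 (7.17%) genes when 3 Trametinib tumours were compared.

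The transcript levels of the direct targets overlapped between the drugs. MAP2K1, which encodes MEK1, had 51.6, 54.3, 59.2 and 35.4 CPM (read counts scaled to a common library size) in Trametinib replicates 1 to 4, against 53.1, 57.9, 50.2 and 53.6 CPM in Cobimetinib replicates 1 to 4. The groups overlapped, and the log2 fold change, Trametinib over Cobimetinib, was −0.10 (95% interval −0.48 to 0.29) with all tumours and −0.00 (−0.37 to 0.36) without Trametinib replicate 4. MAP2K2, which encodes MEK2, lay at −0.48 (−0.96 to 0.00) and −0.34 (−0.80 to 0.13), and with the GC offset at −0.03 with all tumours and 0.07 without Trametinib replicate 4. RIT1 lay at 0.01 (−0.38 to 0.40) and 0.12 (−0.21 to 0.45). Neither kinase gene nor RIT1 passed edgeR's quasi-likelihood test, and these intervals are the differences that the tumours still allow.

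Most genes of the transcriptional output of ERK had negative log2 fold changes, Trametinib over Cobimetinib, and none of them passed edgeR's quasi-likelihood test with all tumours or without Trametinib replicate 4. DESeq2 called SPRY4 in both. Without the 4 libraries apart edgeR's quasi-likelihood test called SPRY4 and EPHA2 (adjusted p = 0.0300 and 0.0279), where 2.52% of all genes were called lower. With the GC offset in the same libraries that test called neither (adjusted p = 0.0800 for SPRY4 and 0.222 for EPHA2). Of a set of 10 ERK-responsive genes, 9 could be tested (EPHA4 had too few counts). The log2 fold change was negative in 8 of the 9 with or without Trametinib replicate 4, with medians of −0.52 and −0.56, against medians over all genes tested of 0.03 and −0.01. At an unadjusted p under 0.05, 3 of the 9 were lower and 0 higher with all tumours, and 4 were lower and 0 higher without that tumour. Over all genes tested, 6.58% were lower and 10.2% higher with all tumours, and 5.45% and 3.72% without that tumour. With the GC offset the medians were −0.52 and −0.55. The mean log2 CPM of the 9 genes was 3.66, 3.47, 3.71 and 2.08 in Trametinib replicates 1 to 4, against 4.43, 4.21, 3.93 and 4.16 in Cobimetinib replicates 1 to 4 and 4.37 to 5.34 under Vehicle. In bulk tumours, fewer cells that express a gene and less RNA per cell cannot be told apart.

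DUSP6 (ENSG00000139318, hg38 chromosome 12, 89347232 to 89353271, minus strand) encodes the phosphatase that inactivates ERK in the cytoplasm. It had 2.79, 3.28, 4.15 and 0 CPM in Trametinib replicates 1 to 4, against 5.53, 6.50, 4.08 and 7.15 CPM in Cobimetinib replicates 1 to 4, and its lowest, median and highest Vehicle values were 8.05, 21.2 and 25.8 CPM. Trametinib replicate 3 and Cobimetinib replicate 3 met at about the same level, so the drugs overlapped, while both lay below every Vehicle tumour. Its log2 fold change between the drugs was −1.13 ± 0.51 (SE; adjusted p = 0.276, edgeR's quasi-likelihood test) with all tumours and −0.81 ± 0.36 (adjusted p = 0.529) without Trametinib replicate 4. The 0 in that tumour allows up to 0.480 CPM, the value of 3 counts there, if each read stands for a separate molecule. Its most frequent count among detected genes was 12, against 1 in Trametinib replicates 1 to 3, so the 0 may allow more. Other values of 0 in that tumour carry the same limit.

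SPRY4 (ENSG00000187678, hg38 chromosome 5, 142310427 to 142326455, minus strand) encodes a Sprouty inhibitor of signalling from receptors to ERK. It had 0.979, 0.355, 1.14 and 0 CPM in Trametinib replicates 1 to 4, against 3.11, 2.24, 2.58 and 3.82 CPM in Cobimetinib replicates 1 to 4. Every Trametinib tumour lay below every Cobimetinib tumour, and the Cobimetinib values lay within the Vehicle range of 1.93 to 5.31 CPM. The log2 fold change was −2.14 ± 0.63 (adjusted p = 0.183, edgeR's quasi-likelihood test), and −1.85 ± 0.53 (adjusted p = 0.386) without Trametinib replicate 4. DESeq2 called it in both (adjusted p = 0.0198 and 0.0472), the only one of the 9 ERK output genes that DESeq2 called in either.

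EPHA2 encodes an ephrin receptor kinase whose transcription ERK induces. It had 28.9, 32.3, 36.1 and 4.64 CPM in Trametinib replicates 1 to 4, against 58.1, 78.1, 45.2 and 60.6 CPM in Cobimetinib replicates 1 to 4. The groups did not overlap, and the log2 fold change was −1.24 ± 0.46 with all tumours and −0.94 ± 0.39 without Trametinib replicate 4. With the GC offset and without that tumour it was −0.56 (unadjusted p = 0.0360). SPRY2, the other Sprouty gene of the set, lay at −0.20 ± 0.20 with all tumours, and at −0.46 ± 0.17 without the fourth Trametinib tumour, which had the highest value of the 8 at 26.1 CPM.

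The differences of the remaining genes of the set were within 2 SE of 0. ETV4 lay at −0.85 ± 0.50 and −0.56 ± 0.45 with and without Trametinib replicate 4 (−0.15 without it and with the GC offset), and ETV5 at −0.44 ± 0.37 and −0.66 ± 0.39. DUSP4, a nuclear phosphatase of ERK, lay at −0.52 ± 0.30 and −0.30 ± 0.26, and CCND1, which encodes cyclin D1, at −0.36 ± 0.34 and −0.09 ± 0.26. PHLDA1 was the exception in sign, at 0.39 ± 0.43 and 0.00 ± 0.43. It had 3.69, 2.48, 2.20 and 6.08 CPM in Trametinib replicates 1 to 4, against 4.42, 2.24, 2.18 and 2.01 CPM in Cobimetinib replicates 1 to 4 and a Vehicle median of 8.92 CPM. The 95% interval of its difference without Trametinib replicate 4 was −0.89 to 0.90, which is too wide to say that the drugs acted alike on it.

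**Figure D1:**
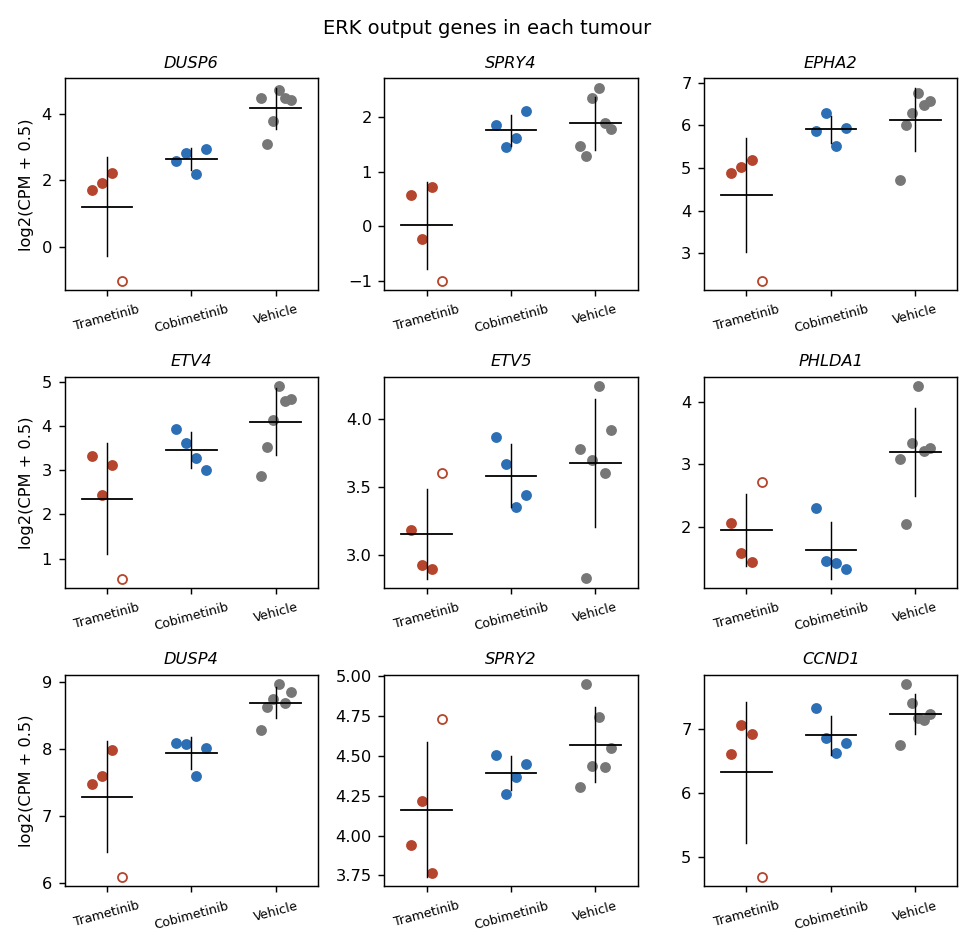
Levels of the 9 tested ERK output genes in each tumour, as log2(CPM + 0.5), under Trametinib (red), Cobimetinib (blue) and Vehicle (grey). Points are tumours, the open red point is Trametinib replicate 4, and bars give the mean and SD. SPRY4 and EPHA2 separate the 2 drugs in every tumour, and PHLDA1 overlaps between them.

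Set beside Vehicle, the same genes show how far the tumours of each drug lay from it. Both contrasts share the Vehicle tumours, and each shares its drug's tumours with the direct comparison. The rank correlation with GC content was −0.54, 0.33, 0.43, 0.31, 0.37 and 0.36 in Vehicle replicates 1, 2, 3, 5, 6 and 7. The GC offset was not used for any contrast against Vehicle, so GC content and drug cannot be fully told apart there either. With all 22 tumours edgeR's quasi-likelihood test called 0 genes for Trametinib against Vehicle (0%; 3327 at an unadjusted p under 0.05, 18.8%) and 0 for Cobimetinib against Vehicle (0%; 582, 3.3%). DESeq2 was not run for these contrasts. The median log2 fold change of the 9 ERK output genes without Trametinib replicate 4 was −1.28 for Trametinib against Vehicle and −0.34 for Cobimetinib against Vehicle. In that fit DUSP6 was the single gene called for Trametinib against Vehicle (0.00556%), at −2.47 ± 0.36 (adjusted p = 0.0131, edgeR's quasi-likelihood test), with 1287 genes (7.16%) at an unadjusted p under 0.05. Under Cobimetinib it lay at −1.66 ± 0.30 from Vehicle, with an adjusted p of 0.0708 by the same edgeR test. PHLDA1 lay at −1.82 ± 0.42 under Trametinib and −1.82 ± 0.37 under Cobimetinib, DUSP4 at −1.04 ± 0.25 and −0.74 ± 0.22, and SPRY4 at −2.05 ± 0.51 and −0.21 ± 0.40. The 2 genes called for Cobimetinib against Vehicle without that tumour (0.0111%, with 1154 or 6.42% at an unadjusted p under 0.05) were CHAC1, which rose by 1.47 ± 0.24, and TTC30A, which fell by 0.96 ± 0.16 on the log2 scale (both adjusted p = 0.0478, edgeR's quasi-likelihood test).

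Among other genes of the feedback onto ERK none passed edgeR's quasi-likelihood test. Of 15 tested, 11 had a negative log2 fold change between the drugs with all tumours (median −0.28) and 10 without Trametinib replicate 4 (median −0.14). In each fit 3 were lower at an unadjusted p under 0.05 (6.58% and 5.45% of all genes were) and 0 higher. DUSP5, a nuclear ERK phosphatase, had 8.59, 8.69, 7.16 and 9.28 CPM in Trametinib replicates 1 to 4, against 14.9, 23.7, 12.4 and 18.9 CPM in Cobimetinib replicates 1 to 4. All 4 Trametinib tumours lay below all Cobimetinib tumours, Trametinib replicate 4 included, and the log2 fold change was −1.05 ± 0.30 with that tumour and −1.14 ± 0.33 without it. DUSP8, a phosphatase of the stress-activated kinases JNK and p38, lay at −1.59 ± 0.53 and −1.37 ± 0.55 (−0.86 without that tumour and with the GC offset). SPRED3, a relative of the Sproutys, lay at −1.20 ± 0.48 and −1.10 ± 0.50. Both differed from DUSP5 in their place against Vehicle, where Cobimetinib lay at 0.90 ± 0.44 for DUSP8 and 1.42 ± 0.41 for SPRED3 without Trametinib replicate 4.

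Of the 23 immediate early genes tested, 17 were negative with all tumours and 18 without Trametinib replicate 4, with medians of −0.40 and −0.43. In each fit 7 were lower at an unadjusted p under 0.05 (6.58% and 5.45% of all genes were) and 0 higher. The 23 genes are GC-rich, with a median of 55.0% against 48.3% over all genes tested. With the GC offset their medians shrank to −0.23 and −0.12. ZFP36, which encodes an RNA-binding protein that destabilises cytokine transcripts, had 9.04, 12.7, 16.8 and 0 CPM in Trametinib replicates 1 to 4, against 24.7, 35.6, 20.3 and 26.8 CPM in Cobimetinib replicates 1 to 4. The groups did not overlap, and its log2 fold change was −1.45 ± 0.59 with all tumours and −1.10 ± 0.42 without Trametinib replicate 4. MYC lay at −0.67 ± 0.23 and −0.58 ± 0.23. The AP-1 genes FOSL1 and FOSB changed sign with 1 tumour. FOSL1 had 3.09, 2.75, 1.46 and 20.2 CPM in Trametinib replicates 1 to 4, against 6.15, 6.35, 3.67 and 5.70 CPM in Cobimetinib replicates 1 to 4, so it lay at 0.29 ± 0.61 with all tumours and −1.21 ± 0.46 without Trametinib replicate 4. FOSB lay at 0.57 ± 0.73 and −1.32 ± 0.58.

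Among 27 genes of the pathway from RAS to ERK, 12 were positive and 15 negative with all tumours (median −0.07), and 13 and 14 without Trametinib replicate 4 (median −0.00). LZTR1, an adaptor that directs ubiquitination of RIT1 and RAS proteins, had 9.19, 12.1, 14.4 and 4.48 CPM in Trametinib replicates 1 to 4, against 19.3 to 25.9 CPM in the 4 Cobimetinib tumours. Every Trametinib tumour lay below every Cobimetinib tumour, with a log2 fold change of −1.14 ± 0.31 (adjusted p = 0.183, edgeR's quasi-likelihood test) and, without Trametinib replicate 4, −0.95 ± 0.30 (adjusted p = 0.444). DESeq2 called LZTR1 with all tumours (adjusted p = 0.0437) and not without that tumour (adjusted p = 0.174). HRAS, which encodes one of the RAS proteins, lay at −0.31 ± 0.18 and −0.44 ± 0.19. With the GC offset and without that tumour these became 0.16 for HRAS and −0.56 for LZTR1.

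Ligands and receptors upstream of RAS lay on both sides of 0. Of the 7 EGF receptor ligands tested, 4 were positive with all tumours (median 0.13) and 3 without Trametinib replicate 4 (median −0.11). BTC, which encodes betacellulin, had 5.42, 7.09, 4.97 and 5.92 CPM in Trametinib replicates 1 to 4, against 2.56, 3.10, 3.54 and 4.01 CPM in Cobimetinib replicates 1 to 4. It was the ligand whose 4 Trametinib tumours all lay above the Cobimetinib tumours, at 0.82 ± 0.27 and 0.78 ± 0.25. HBEGF lay at −0.88 ± 0.46 and −0.63 ± 0.43, and AREG at −0.32 ± 0.42 and −0.50 ± 0.45. The receptor tyrosine kinases had medians of −0.04 over 17 genes and −0.03 over 18 genes without that tumour. ERBB4 had 4.29, 6.83, 6.27 and 22.2 CPM in Trametinib replicates 1 to 4, against 1.94, 1.93, 2.31 and 3.20 CPM in Cobimetinib replicates 1 to 4, a log2 fold change of 2.05 ± 0.59 with all tumours and 1.26 ± 0.54 without the fourth. DESeq2 called ERBB4 with all tumours (adjusted p = 0.0401) and not without the fourth (adjusted p = 0.337). MET lay at 0.37 ± 0.22 and 0.51 ± 0.18, and FGFR4 at −0.64 ± 0.39 and −1.09 ± 0.38. Without the fourth tumour and with the GC offset MET lay at 0.30 and FGFR4 at −0.58, and with all tumours FGFR4 lay at 0.00.

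No gene of cholesterol synthesis passed edgeR's quasi-likelihood test between the drugs, and most of their log2 fold changes were negative. The log2 fold change was negative in 20 of 24 with all tumours and in 23 of 24 without Trametinib replicate 4. The medians were −0.43 and −0.46. In each fit 7 were lower at an unadjusted p under 0.05 (6.58% and 5.45% of all genes were), and 1 and 0 were higher. With the GC offset the medians were −0.65 and −0.51. All Trametinib tumours lay below all Cobimetinib tumours in 5 of the 24 (4.45% of all genes tested did so), and in 8 of the 24 without Trametinib replicate 4 (7.17% of all genes). MVD (ENSG00000167508, hg38 chromosome 16, 88651935 to 88663161, minus strand), which encodes the decarboxylase that completes the mevalonate pathway, had 39.7, 36.0, 60.1 and 24.2 CPM in Trametinib replicates 1 to 4, against 104, 104, 83.3 and 103 CPM in Cobimetinib replicates 1 to 4 and a Vehicle median of 68.0 CPM. The highest Trametinib tumour lay below the lowest Cobimetinib tumour, and the log2 fold change was −1.30 ± 0.27 (adjusted p = 0.183, edgeR's quasi-likelihood test), and −1.16 ± 0.27 (adjusted p = 0.304) without Trametinib replicate 4. DESeq2 called MVD in both (adjusted p = 0.00378 and 0.0264). MVD is GC-rich, at 63.7%, and with the GC offset its log2 fold change was −0.76 with all tumours and −0.68 without that tumour.

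MVK, mevalonate kinase, had 21.8, 21.4, 30.0 and 12.2 CPM in Trametinib replicates 1 to 4, against 42.8, 38.2, 45.7 and 46.0 CPM in Cobimetinib replicates 1 to 4. The groups did not overlap, at −1.01 ± 0.24 with all tumours and −0.86 ± 0.23 without the fourth Trametinib tumour. DESeq2 called MVK with all tumours (adjusted p = 0.0138) and not without the fourth (adjusted p = 0.0729). LSS, which makes lanosterol, lay at −1.36 ± 0.43 and −1.07 ± 0.38. Against Vehicle and without Trametinib replicate 4, the list's median was −0.33 under Trametinib and 0.06 under Cobimetinib. The single genes stood on both sides of Vehicle, with MVD at −0.70 ± 0.25 and MVK at −0.28 ± 0.21 under Trametinib, and at 0.46 ± 0.22 and 0.57 ± 0.19 under Cobimetinib; none of these 4 values passed the test.

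Among genes of the response driven by ATF4, the transcription factor of amino acid shortage and other stresses, most log2 fold changes were also negative and none passed edgeR's quasi-likelihood test between the drugs. Of 21 genes, 17 were negative with all tumours and 19 without Trametinib replicate 4, with medians of −0.44 and −0.39 and, with the GC offset, −0.43 and −0.31. At an unadjusted p under 0.05, 8 and 6 genes were lower (6.58% and 5.45% of all genes were) and 0 higher. TRIB3, a pseudokinase induced by ATF4, had 52.3, 41.9, 49.9 and 27.2 CPM in Trametinib replicates 1 to 4, against 120, 75.2, 88.3 and 86.8 CPM in Cobimetinib replicates 1 to 4. All Trametinib tumours lay below all Cobimetinib tumours, at −1.11 ± 0.25 (adjusted p = 0.183, edgeR's quasi-likelihood test) and −0.98 ± 0.25 (adjusted p = 0.348) without the fourth. DESeq2 called it with all tumours (adjusted p = 0.00799) and not without the fourth (adjusted p = 0.0501), and with the GC offset it lay at −0.68 and −0.60. CHAC1 (ENSG00000128965, hg38 chromosome 15, 40952962 to 40956519, plus strand), which degrades glutathione, had 7.38, 4.43, 8.47 and 0 CPM in Trametinib replicates 1 to 4, against 17.8, 8.75, 16.1 and 14.5 CPM in Cobimetinib replicates 1 to 4 and a Vehicle median of 4.69 CPM. The drugs did not overlap, at −1.46 ± 0.53 with all tumours and −1.11 ± 0.30 without Trametinib replicate 4, where the GC offset gave −0.70. All 4 Cobimetinib tumours lay above the highest Vehicle tumour, at 8.41 CPM.

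SESN2, a sestrin that restrains the growth kinase complex mTORC1, lay at −0.86 ± 0.26 and −0.78 ± 0.27 between the drugs, and at −0.46 with the GC offset and without Trametinib replicate 4. DDIT3, which encodes the stress factor CHOP, lay at −0.64 ± 0.34 and −0.91 ± 0.34. Relative to Vehicle without Trametinib replicate 4, CHAC1, SESN2 and DDIT3 lay at 0.36 ± 0.27, 0.13 ± 0.25 and −0.12 ± 0.32 under Trametinib, and at 1.47 ± 0.24, 0.91 ± 0.23 and 0.79 ± 0.28 under Cobimetinib. Of these 6 values, the one for CHAC1 under Cobimetinib passed.

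**Figure D2:**
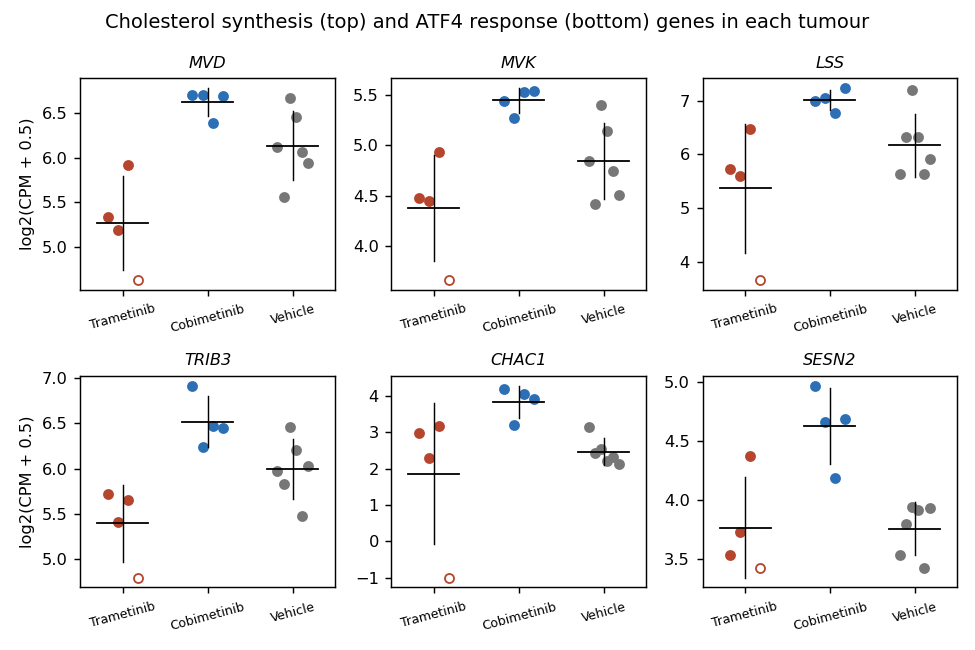
Levels of 3 cholesterol synthesis genes (top) and 3 ATF4 response genes (bottom) in each tumour, as log2(CPM + 0.5), under Trametinib (red, with replicate 4 open), Cobimetinib (blue) and Vehicle (grey). Points are tumours and bars the mean and SD. MVD, MVK, LSS, TRIB3 and CHAC1 lie lower in every Trametinib tumour than in any Cobimetinib tumour.

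Genes of growth and division had medians near 0 without Trametinib replicate 4. The medians with and without it were 0.16 and 0.06 for 18 G1 cyclins and CDK inhibitors, 0.02 and 0.10 for 24 DNA replication genes, 0.14 and 0.15 for 24 mitosis genes, and −0.02 and 0.12 for 21 ribosome biogenesis genes. With the GC offset and without that tumour, mitosis genes lay at −0.04. The values of ribosomal protein genes turned on this library. Their median over 55 genes was 1.07 with it and 0.16 without it. At an unadjusted p under 0.05, 37 were higher with it (10.2% of all genes were) and 0 without it (3.72% of all genes were). RPL3, of the large subunit, had 2402, 2152, 1505 and 1920 CPM in Trametinib replicates 1 to 4, against 1475, 1366, 1526 and 1575 CPM in Cobimetinib replicates 1 to 4. RPL3 did not follow the list, whose summed CPM was 245889 in Trametinib replicate 4 and 32165 to 54091 in the other Trametinib tumours. Nuclear genes of oxidative phosphorylation lay at 0.44 with Trametinib replicate 4 and −0.10 without it over 25 genes. The 13 mitochondrially encoded genes lay at −0.37 and −0.10.

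Cytokine genes and NF-kB targets were negative in 10 of 14 with all tumours and 12 of 14 without Trametinib replicate 4, with medians of −0.23 and −0.25. LIF, an interleukin-6 family cytokine, had 6.33, 4.96, 8.22 and 0 CPM in Trametinib replicates 1 to 4, against 12.8, 9.13, 11.3 and 12.9 CPM in Cobimetinib replicates 1 to 4. The groups did not overlap, at −1.20 ± 0.49 and, without the fourth Trametinib tumour, −0.86 ± 0.26. CXCL3, a neutrophil attractant, lay at −1.51 ± 0.53 and −1.20 ± 0.40. Interferon-stimulated genes had medians of 0.28 and 0.08 over 20 genes, and MHC class I and antigen processing genes 0.08 and −0.04 over 14. B2M, the light chain of MHC class I, lay at 1.15 ± 0.46 with all tumours and 0.38 ± 0.38 (0.11 with the GC offset) without Trametinib replicate 4, which held 2139 CPM of it against 399 to 824 CPM in the other 3 Trametinib tumours.

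Genes of epithelial state varied widely between tumours. Of 12 genes tested from the list for alveolar type 2 cells, 10 were positive with all tumours and 8 without Trametinib replicate 4. The medians were 0.62 and 0.49. The list includes HOPX, and ETV5, which is also counted among the ERK output genes. SFTPB, a surfactant protein, had 1.06, 2.13, 29.0 and 30.4 CPM in Trametinib replicates 1 to 4, against 8.16, 0.929, 1.56 and 1.07 CPM in Cobimetinib replicates 1 to 4. Its log2 fold change of 2.40 ± 1.17 (1.84, 95% interval −0.66 to 4.33, without the fourth) therefore rested on 2 Trametinib tumours. HOPX, a regulator of lung epithelial differentiation, lay at 1.05 ± 0.33 and 0.65 ± 0.31. The 13 lung adenocarcinoma epithelial genes had medians of 0.11 and 0.23, with CEACAM6, a surface adhesion protein, at 1.04 ± 0.58 and 1.31 ± 0.58 and the mucin gene MUC1 at −1.02 ± 0.46 and −1.19 ± 0.52. MUC1 has a GC content of 71.2%, and with the GC offset it lay at 0.02 with all tumours and −0.41 without Trametinib replicate 4. The epithelial-mesenchymal genes had medians of 0.15 and 0.12 over 12.

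Hypoxia and glycolysis genes had medians of 0.07 and 0.12 over 22 genes. EGLN3, an oxygen sensor induced by hypoxia, lay at 1.16 ± 0.40 and 1.16 ± 0.44, and LDHA, lactate dehydrogenase A, at 0.64 ± 0.21 and 0.37 ± 0.16 (0.18 without Trametinib replicate 4 and with the GC offset). Medians with and without Trametinib replicate 4 were 0.13 and 0.04 for 17 BCL2 family genes, 0.13 and 0.21 for 17 FOXO-linked and glucocorticoid-linked genes, −0.01 and 0.02 for 15 heat shock proteins, 0.05 and −0.00 for 20 aldo-keto reductases and NRF2 targets, and 0.12 and −0.28 for 13 replication-dependent histones. None of the members of these lists passed edgeR's quasi-likelihood test, as no gene did.

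**Figure D3:**
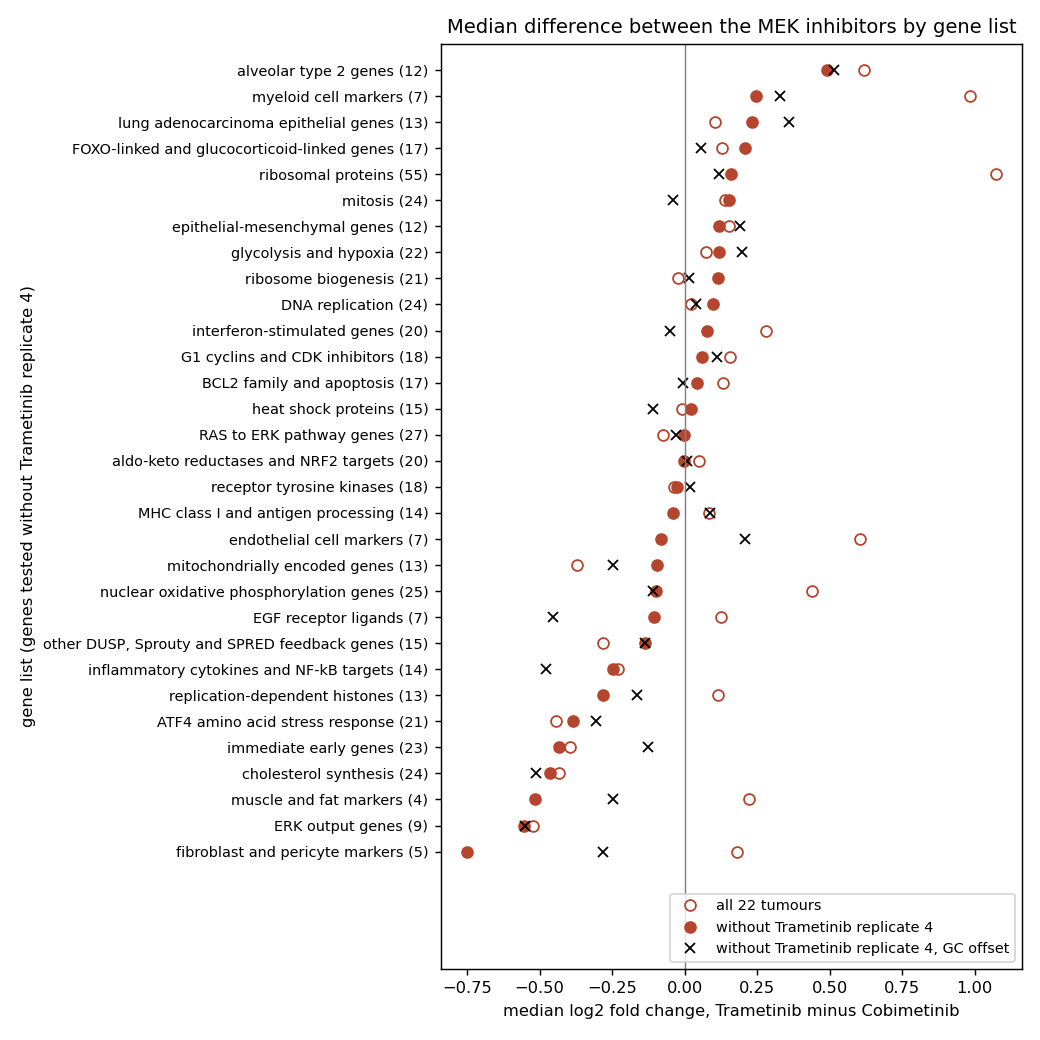
Median log2 fold change, Trametinib over Cobimetinib, of 31 gene lists (number of genes tested in brackets), with all 22 tumours (open circles), without Trametinib replicate 4 (filled circles) and without it with the GC offset (crosses). ERK output, cholesterol synthesis and ATF4 response genes lie between −0.31 and −0.56 in each setting drawn, while ribosomal proteins lie at 1.07 only with Trametinib replicate 4.

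The genes with the smallest p and no overlap between the drugs were named by a rule, and none of them passed edgeR's quasi-likelihood test with all tumours or without Trametinib replicate 4. DESeq2 with all tumours called TTC30A, TTC26, BBS9, MOXD1, RGL1, SEMA3C, RHBDL1, HES4, CIAO3, MVD and TRIB3, with adjusted p from 0.000518 to 0.0263. Without Trametinib replicate 4 DESeq2 called all of these but RGL1 (adjusted p = 0.117) and TRIB3 (adjusted p = 0.0501), with BBS9 at an adjusted p of 0.0472. On the higher side stood TTC30A and TTC26, which encode subunits of the intraflagellar transport machinery that builds cilia, and BBS9, a subunit of the BBSome that carries ciliary membrane proteins. TTC30A (ENSG00000197557, hg38 chromosome 2, 177612992 to 177618966, minus strand) had 37.4, 40.1, 41.2 and 25.3 CPM in Trametinib replicates 1 to 4, against 13.9, 16.5, 19.4 and 21.8 CPM in Cobimetinib replicates 1 to 4 and a Vehicle median of 35.7 CPM. Cobimetinib tumours were the low ones, all under the lowest Vehicle tumour at 23.6 CPM, while the 4 Trametinib tumours lay within the Vehicle range. TTC30A has a close paralog, TTC30B, so how its reads were shared between the copies is uncertain. The log2 fold change was 1.01 ± 0.20 (adjusted p = 0.183, edgeR's quasi-likelihood test) and 1.11 ± 0.18 (adjusted p = 0.0773) without Trametinib replicate 4, where it had the smallest p of all genes. DESeq2 called it in both (adjusted p = 0.000518 and 6.77e-05). TTC26 lay at 0.90 ± 0.20 and 0.94 ± 0.19, and BBS9 at 0.98 ± 0.22 and 0.76 ± 0.20.

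The other genes named on the higher side were MOXD1 at 0.95 ± 0.22 and 1.02 ± 0.22, RGL1, which binds active RAS-family proteins, at 1.10 ± 0.26 and 0.88 ± 0.26, the semaphorin SEMA3C at 0.81 ± 0.22 and 0.91 ± 0.20, and the tubulin TUBA1A at 0.82 ± 0.42 and 1.14 ± 0.25. On the lower side, beside MVD and TRIB3, stood RHBDL1, a rhomboid protease gene, at −0.96 ± 0.17 (adjusted p = 0.152, edgeR's quasi-likelihood test) and −1.02 ± 0.18 (adjusted p = 0.0911 without Trametinib replicate 4). HES4, a transcription repressor of the hairy family, lay at −1.06 ± 0.21 and −0.98 ± 0.21, and CIAO3, of cytosolic iron-sulfur protein assembly, at −0.77 ± 0.17 and −0.73 ± 0.17. These 3 genes are GC-rich, at 66.7%, 73.9% and 63.7%, and with the GC offset and without that tumour they lay at −0.37, −0.08 and −0.22. The remaining 3 were named from the fit without Trametinib replicate 4, in which AC004233.2 lay at −1.72 ± 0.31, the kinase gene NEK8 at −1.09 ± 0.24 and CCDC88B at −1.16 ± 0.24. With all tumours the groups overlapped in each of them, and AC004233.2 lay at −0.96 ± 0.38 and NEK8 at −0.36 ± 0.34. Without Trametinib replicate 4 and with no filter on low counts, AC004233.2 passed (adjusted p = 0.0105, edgeR's quasi-likelihood test). It was the 1 gene of 41248 that did (0.00242%), and with all tumours and no filter 0 genes passed. CCDC88B lay at 0.33 ± 0.49 with all tumours, where Trametinib replicate 4 held 51.8 CPM of it against 4.25 to 7.46 CPM in the other 3 Trametinib tumours. Without that tumour CCDC88B lay at −0.51 when the GC offset was used. DESeq2 without that tumour called AC004233.2, NEK8, CCDC88B and TUBA1A (adjusted p = 0.000237, 0.0137, 0.00960 and 0.0219). With all tumours DESeq2 called none of these.

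Across all genes the difference between the drugs followed GC content. Spearman's rho between log2 fold change and GC content was −0.36 over 17647 genes with all tumours and −0.56 over 17975 genes without Trametinib replicate 4; genes of 1 set of libraries are not independent. In 5 groups of genes of rising GC content, the median log2 fold change without that tumour was 0.20, 0.13, 0.01, −0.19 and −0.46. Genes lower under Trametinib at an unadjusted p under 0.05 had a median GC content of 60.3%, and those higher 42.2%. The part of this trend in any single gene was not tested. With the offset that removes it, edgeR's quasi-likelihood test called 0 genes with all tumours. Without Trametinib replicate 4 it called 1 gene, the histone variant H2AFJ (0.00556%), at −0.83 (adjusted p = 0.0413). With all tumours and no offset H2AFJ lay at 0.04 (adjusted p = 0.958, the same test). Trametinib replicate 4 held 119 CPM of it, against 31.5 to 46.3 CPM in Trametinib replicates 1 to 3. With the offset and without all 4 libraries apart edgeR's quasi-likelihood test called 13 genes (0.0732%), 12 lower (0.0676%) and 1 higher (0.00563%), which was TTC30A. No ERK output, cholesterol synthesis or ATF4 response gene of the lists was among the 13.

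**Figure D4:**
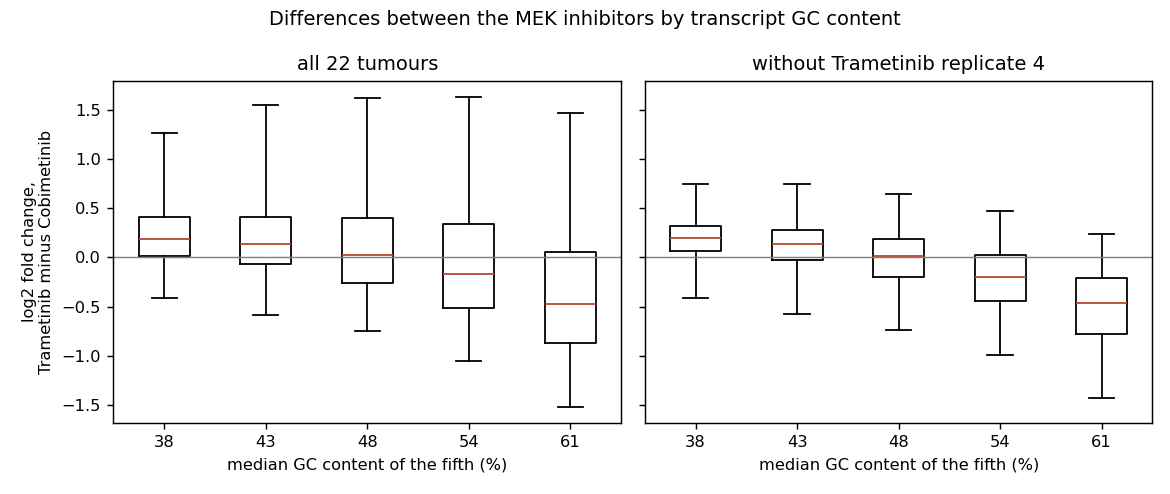
Log2 fold change, Trametinib over Cobimetinib, of the genes tested in 5 equal groups by transcript GC content, with all 22 tumours (left) and without Trametinib replicate 4 (right). Boxes give quartiles, red lines medians and whiskers the 5th to 95th percentiles. The medians fall with GC content in both, to −0.47 and −0.46 in the group of highest GC content.

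Markers of other cell types were detected, and the summed CPM of the myeloid markers was the highest of the 8 in Trametinib replicate 4. The part of host cells in these reads was not tested. The summed CPM of 19 myeloid markers was 5032 in Trametinib replicate 4 and 153 to 516 in the other 3 Trametinib tumours, against 195 to 530 under Cobimetinib. Of the 7 myeloid markers tested, 6 had a positive log2 fold change with all tumours and 4 without Trametinib replicate 4. The members did not all move together, and the values given next make up little of that sum. In Trametinib replicate 4 CD14 (1.60 CPM) and CSF1R (2.24 CPM) were the lowest of the Trametinib tumours. MRC1 (14.6 CPM) and LAPTM5 (5.28 CPM) lay within the range of the other 3, and C1QA was at 0 in all 8. Endothelial markers (12) summed to 305 in Trametinib replicate 4 and 99.4 to 190 in the other 3, against 124 to 189 under Cobimetinib. The 18 fibroblast and pericyte markers summed to 64.9 to 151 under Trametinib, replicate 4 included, against 131 to 231 under Cobimetinib, with THY1 at 0 in all 8. Muscle and fat markers (16) summed to 200.2 in Trametinib replicate 4 and 48.6 to 63.8 in the other 3, against 53.3 to 76.8 under Cobimetinib, with MYL1 at 0. The 8 red blood cell markers summed to 53.0 in that library and 0.163 to 0.886 in the other 3, against 0.387 to 1.02 under Cobimetinib, and HBB, HBD and AHSP were at 0 in all 8. Median log2 fold changes with and without it were 0.98 and 0.25 for myeloid (7 genes tested), 0.61 and −0.08 for endothelial (7), 0.18 and −0.75 for fibroblast (5), and 0.22 and −0.51 for muscle and fat markers (3 and 4); the part of these cells in the other results was not tested. The strand setting of the counting was not stated, so the values of CIAO3, DDIT3, ETV4, FOSB, MVK, NEK8 and TUBA1A are uncertain. Each overlaps a gene on the opposite strand with at least about as many counts (HAGHL, MARS, DHX8, ERCC1, MMAB, TLCD1 and TUBA1C). The values of EGLN3 are uncertain too. It overlaps SPTSSA on the same strand, which had 49979 counts over all tumours, against 43460 for EGLN3.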

How the data were processed

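The authors deposited 1 table of raw counts, whole numbers of reads for 58735 genes in 22 tumours. Libraries were strand-specific, of total RNA, per the labels' protocols. Per the submitters' processing notes, reads were handled with edgeR 3.22.5, DESeq2 1.20.0, featureCounts 1.5.0-p3, HISAT2 2.0.5 and fastp (named in no order) on hg38. Strand setting, annotation release and the treatment of multimapping reads were not stated.

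The edgeR 4.0.16 filter (R 4.3.3; minimum count 10, 5 groups) retained genes with 99.7% of counts. Libraries were scaled by TMM. A robust quasi-likelihood model with 1 mean per group was fitted to all 22 tumours and, with filter and scaling recomputed, to the 21 without Trametinib replicate 4. Each F-test was 2-sided, with p adjusted after Benjamini and Hochberg over all genes tested and a threshold of 0.05. CPM came from the fit to 22 tumours, log2 CPM used a prior count of 2, and intervals are 95%. GC content came from the longest GENCODE 29 transcript of 58676 genes, and the offset was a loess curve (span 0.5) per library.

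Alternatives were DESeq2 1.42.0, limma 3.58.1 with library weights, RLE and library-size scaling, no filter, a mean CPM of at least 1, 2 groups only, a replicate block, the GC offset and each tumour left out. The scripts were tested on simulated data. Total counts bound the counting error only, since no molecular identifiers are named. No 2 libraries of a drug were duplicates, with a chi-square per gene of 14.1 to 308.

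The members and the 32 gene lists (620 entries, all found) were chosen with earlier results of these data known. Named genes were up to 10 each way past the threshold, protein-coding, of mean log2 CPM of at least 2 and without overlap; where fewer than 5 passed, the smallest p filled up to 5. Up to 4 members of a list were named by p without Trametinib replicate 4, with the ERK output genes, MAP2K1, MAP2K2 and RIT1 always. B2M, RPL3 and H2AFJ were picked after their values were seen where the rule did not give them.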

Additional observations from a re-analysis of the deposited data

Results flagged for a closer look

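Single tumours stood far from the other 3 of their group in 16 of 132 sets of 4 values examined; chance alone gives about 1 in 20 for independent sets, and these sets share libraries. Of the 16, 8 were in Trametinib replicate 4. In Trametinib replicate 4, DUSP6, ZFP36 and LIF were at 0 CPM, against 2.79 to 4.15, 9.04 to 16.8 and 4.96 to 8.22 CPM in the other Trametinib tumours, and EPHA2 was at 4.64 CPM, against 28.9 to 36.1 CPM. The same library stood apart in its ribosomal protein share (26.0% of counts), its share of detected genes with 1 or 2 counts (1.99%), its median correlation with the others (0.751) and its mean log2 CPM of the ERK output genes (2.08).

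Cobimetinib replicate 1 had the lowest BBS9 (6.50 CPM, against 7.96 to 8.23 in the other Cobimetinib tumours) and AC004233.2 (16.4 CPM, against 23.2 to 24.0). It had the highest CCDC88B (15.3 CPM, against 13.2 to 13.5) and PHLDA1 (4.42 CPM, against 2.01 to 2.24). Cobimetinib replicate 3 had the lowest MVD (83.3 CPM, against 103 to 104), DUSP4 (193 CPM, against 259 to 274) and HBEGF (3.67 CPM, against 5.74 to 6.14), and was the Cobimetinib library with a negative correlation of its levels with GC content (−0.23).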

How the results depend on the processing

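For Trametinib against Cobimetinib with all 22 tumours, 0 genes were called under RLE or library-size scaling, no filter, a mean CPM of at least 1, the 2 groups alone and the GC offset, but DESeq2 called 168, limma with library weights 6600 (Trametinib replicate 2 had a weight of 8.82 and replicate 4 of 0.0529), and leaving out the 4 libraries apart 537. Those 4, chosen after seeing the data, are Trametinib replicate 4, RMC-7977 replicate 3, Vehicle replicate 1 and RMC-4550 replicate 1. Of the 537, 448 were lower (2.52%) and 89 higher (0.501%), with median GC contents of 62.4% and 42.6%. They include SPRY4, EPHA2, DUSP5, DUSP8, ZFP36, LZTR1, MVD, MVK, TRIB3, CHAC1, SESN2, DDIT3, LIF and TTC30A. With the GC offset in the same libraries, TTC30A was the only one of these named genes still called. Leaving out 1 tumour gave 0 to 313 calls, 313 (264 higher) without Trametinib replicate 3. With Trametinib replicate 4 left out throughout, DESeq2 called 52, no filter 1 (AC004233.2), the GC offset 1, library weights 7055, the 4 apart 537, the GC offset without the 4 apart 13 (12 lower, 1 higher, TTC30A), and leaving out a further tumour 0. For Trametinib against Vehicle leaving out 1 tumour gave 0 to 1428 calls: 548, 625 and 1428 without Trametinib replicates 1, 2 and 3, and 740 without Vehicle replicate 1. For Cobimetinib against Vehicle it gave 0 to 2, the 2 without Trametinib replicate 4. The cause of these moves was not tested.

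Same-numbered tumours of the 2 drugs did not deviate together (correlations of −0.04, 0.09, −0.39 and −0.04). The labels do not say whether the numbers pair tumours, and so few correlations cannot settle it. A fit with the replicate number as a block called 0 genes (843 at an unadjusted p under 0.05, and 1200 without Trametinib replicate 4). Signs reversed for CCDC88B under library weights (−1.54) and without the 4 apart (−1.14), and for FOSL1 (−1.08) and FOSB (−1.18) under library weights. Of 1140 pairs of a named gene and a setting, 1108 kept the sign of the fit to 22 tumours, and 50 of 60 genes kept it in every setting. Of 31 list medians, 10 changed sign without Trametinib replicate 4, 5 with the GC offset, 3 with library-size scaling and 0 with DESeq2. The precision of low genes is limited by depth, as 3 counts were worth 0.480 CPM in Trametinib replicate 4 and 0.188 to 0.266 CPM in the other 7 tumours of the drugs. In Trametinib replicate 4, where the most frequent count was 12, it may be poorer than this.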

Other observations

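Since TTC30A, TTC26 and BBS9 stood among the genes with the smallest p, 31 genes of intraflagellar transport and the BBSome, which build and supply the primary cilium, were described as well; the list was chosen after these values were seen and has no test. Of the 31, 26 had a positive log2 fold change, Trametinib over Cobimetinib, with all 22 tumours (median 0.28) and 23 without Trametinib replicate 4 (median 0.32), and 8 were higher and 0 lower at an unadjusted p under 0.05 in each. The background at that threshold was 10.2% of genes higher with all tumours and 3.72% without that tumour. TTC30A, TTC26 and BBS9 are among the 31 and in every count given here. Setting these counts beside shares of all genes is therefore no test. These genes are poor in GC, at a median of 43.2%, and with the GC offset and without the tumour 21 were positive and the median was 0.14. Against Vehicle their median was 0.15 under Trametinib and −0.16 under Cobimetinib without that tumour. Leaving out the 4 libraries apart, edgeR's quasi-likelihood test called 5 of them, all higher under Trametinib (0.501% of all genes were): BBS9, TTC26, TTC30A, TTC30B and WDR35. In the same libraries with the GC offset TTC30A was the 1 gene called higher, so the other 4 calls were lost (BBS9 adjusted p = 0.238 and TTC26 adjusted p = 0.0960, edgeR's quasi-likelihood test).

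Trametinib without its replicate 4 left 13 genes called when the GC offset was used and the other 3 libraries apart were left out too. The 12 lower ones included SEC61G, a subunit of the protein translocation channel of the endoplasmic reticulum, with 65.8, 49.0 and 53.6 CPM in Trametinib replicates 1 to 3, against 75.4, 58.4, 105 and 71.9 CPM in Cobimetinib replicates 1 to 4 (log2 fold change −0.75 ± 0.12, adjusted p = 0.0157, edgeR's quasi-likelihood test). The CPM values of the groups overlapped, and the gene was chosen after its values were seen.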
